A study of Mus musculus with 13 samples.

Results

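Tfcp2l1, Elf5, Elf3, Grhl2, Foxi1, Gata2 and Ehf encode transcription factors of the kidney's collecting duct and of other epithelia, and the open chromatin around these 7 genes was followed in single nuclei of newborn and adult mouse kidney. The genes were chosen by name, and their regions by position: a peak of the snATAC-seq peak list was taken when it overlapped the body of a gene or the 2 kb upstream of it in GENCODE M21 on mm10. This rule found 84 of 300755 peaks, with 18 at Tfcp2l1, 14 at Elf5, 1 at Elf3, 28 at Grhl2, 1 at Foxi1, 7 at Gata2 and 15 at Ehf. Of them, 59 lie in introns, 16 over exons and 9 over a transcript start, and 7 also lie in the window of another gene. Among the 55450 annotated genes, 32949 have at least 1 peak in such a window.

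Nuclei came from whole kidneys of mice as 2 P0 samples, 1 P21 sample and 2 P56 samples, without any treatment named in the labels. The P0 mice are described as 1 day old, and the P21 and P56 mice as 3 and 8 weeks old. The strain and sex of these mice and the number of animals per sample are not given in the sources used here, so p-values measure the spread between samples, which may be partly technical. The P21 and P56 samples form the adult group. Each sample was its own batch, so stage and batch cannot be told apart. A peak counts as open in a nucleus when at least 1 fragment fell in it, and such an open call carries no fragment count. The samples held between 3361 and 7129 nuclei and between 16980853 and 43794155 open calls, and 477 barcodes occur in more than 1 sample.

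The collecting duct drains the nephrons and sets the final composition of urine. Its principal cells (PC) take up sodium and water through the epithelial sodium channel and aquaporins, and its intercalated cells (IC) move acid and base with a proton pump. The connecting tubule (CNT) joins the distal nephron to the duct and also reabsorbs calcium. Foxi1, a forkhead factor, is required for intercalated cells, and Tfcp2l1, a CP2 family factor, acts in both cell types of the duct. Elf5, Elf3 and Ehf are ETS factors with an epithelial restriction, Grhl2 is a grainyhead factor that controls junction genes of epithelia, and Gata2 is a zinc finger factor of blood, endothelium and the duct.

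The stage comparisons below turn mainly on intronic and exonic peaks of Elf5, Gata2 and Tfcp2l1, and short stretches of some that passed between stages are shown. Peaks of a gene are numbered along the chromosome. Sequences are from the RefSeq copy of GRCm38 (mm10), read 5′ to 3′ on the strand named, and capitals mark the letters searched for.
Elf5 peak 2, chr2:103413570-103413599, minus strand, ETS letters: cgcagtccccttAGGAAGctgattaataaa
Elf5 peak 9, chr2:103436845-103436874, plus strand, ETS letters: cagaccgaactcAGGAAGggtctgttttct
Elf5 peak 9, chr2:103436913-103436942, plus strand, CP2 pair: ctgatcagCCAGCTCCAGCCAGcagtgggg
Gata2 peak 4, chr6:88201654-88201683, plus strand, ETS letters: tccaactagatcAGGAAGaatttccatggt
Tfcp2l1 peak 6, chr1:118648356-118648385, plus strand, CP2 pair: cggacctcCCAGACTGCACCAGattccttg
Tfcp2l1 peak 6, chr1:118648312-118648341, minus strand, Gata letters: gcagaaggaagtAGATAAgcaaagggcagt

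The letter strings were searched on both strands in the central 300 bp of each peak, without regard to overlap between strings. The ETS core AGGAAG occurred in 41 of the 84 peaks (48.8%) and in 38.1% of the 300693 peaks scanned. The Gata core AGATAA was in 11 (13.1%, against 15.3% of all peaks), the CP2 pair CCAGNNNNNNCCAG in 3 (3.57% against 3.73%), the grainyhead string AACNGGTT in 1 (1.19% against 2.44%) and the forkhead string TGTTTAC in 0 (against 5.09%). The median GC content was 49.5% in the 84 peaks and 46.7% in all peaks. A match describes these letters only, and its absence says nothing of whether a factor binds.

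The labels of the 3 duct clusters were checked with marker genes, counting open calls in a gene's window and scaling the open calls of the cluster in that sample to 1000000 (CPM). In adult samples the PC, IC and CNT clusters each had the highest summed level of their own markers among the 3. PC markers (Aqp2, Aqp3, Fxyd4, Scnn1g and Avpr2) summed to 272 to 360 CPM in adult PC, and IC markers (Atp6v1g3, Atp6v0d2, Atp6v1b1, Slc4a1 and Slc26a4) to 440 to 486 in adult IC. CNT markers (Trpv5, Calb1, Slc8a1 and Klk1) summed to 741 to 1112 in adult CNT.

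At P0 the marker sums separated PC and CNT little, and single markers differed. The CNT markers reached 236 and 251 CPM in nuclei labelled CNT, against 188 and 178 in PC. Most of that sum was Slc8a1 (165 and 164 in CNT, 139 and 132 in PC), while Trpv5, the calcium channel of the connecting tubule, was at 37.6 and 35.3 in CNT and 16.4 and 16.1 in PC. The summed PC markers were higher in nuclei labelled CNT, at 171 and 176, than in PC, at 132 and 146. Scnn1g (69.5 and 63.0 in CNT, 45.6 and 46.9 in PC) and Aqp3 (55.8 and 65.5, 26.9 and 40.1) had this order, whereas Aqp2 (19.4 and 20.1, 23.5 and 28.5) and Fxyd4 (13.7 and 16.4, 22.4 and 21.8) were higher in PC. The IC markers stood apart at P0 as well, with 314 and 356 in IC against 104 to 140 in the other two. Loop of Henle markers lay between 13.9 and 28.9 in the 3 clusters at P0 and between 33.8 and 77.5 in the adult. Markers of distal convoluted tubule in nuclei labelled CNT went from 42.2 and 55.4 at P0 to between 236 and 383 in the adult. Stroma markers (Col3a1 and Pdgfra) in the 3 clusters lay between 38.8 and 48.5 at P0 and between 18.4 and 27.2 in the adult, and those of nephron progenitors between 17.3 and 41.0 and between 5.44 and 18.6. The part of these differences in the results below was not tested.

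**Figure D1:**
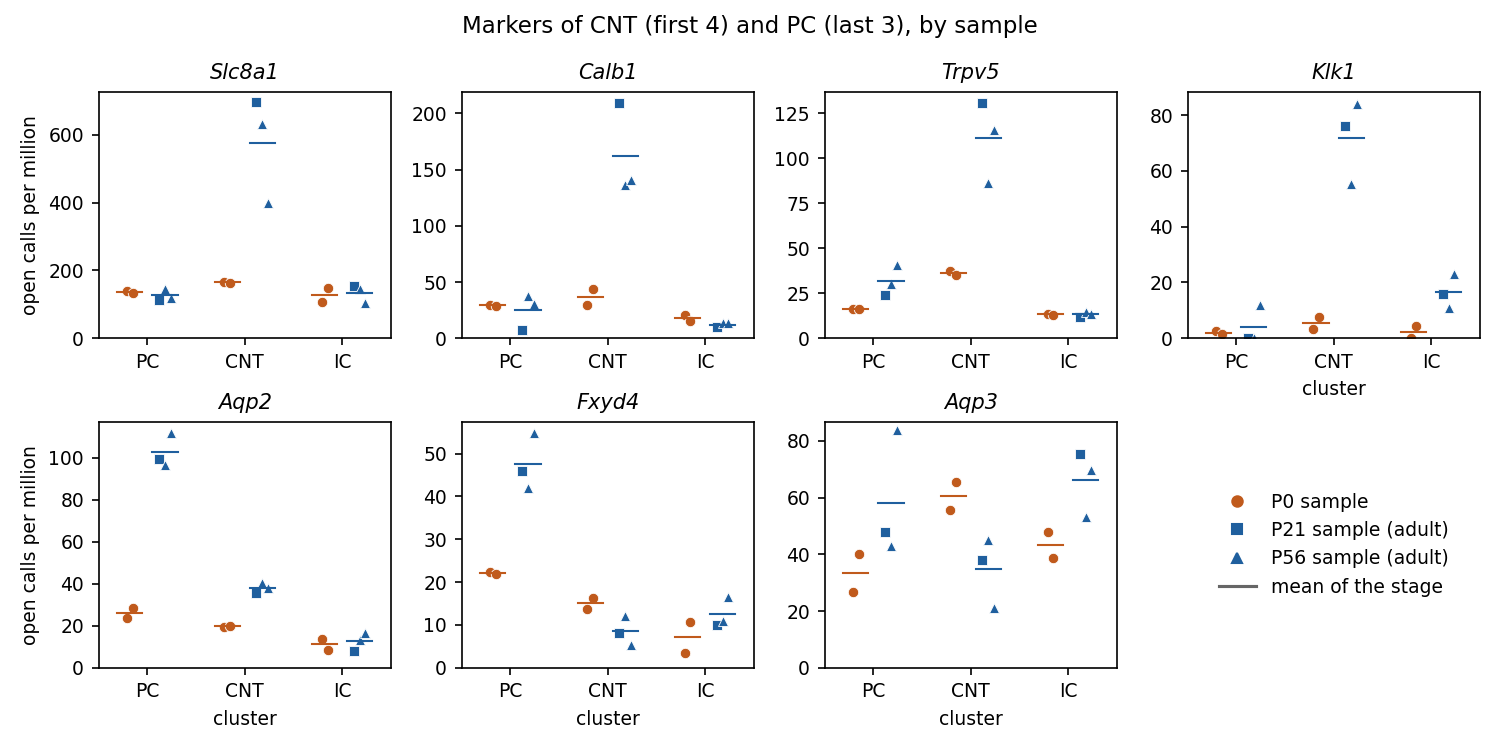
CPM of the CNT markers Slc8a1, Calb1, Trpv5 and Klk1 and the PC markers Aqp2, Fxyd4 and Aqp3 in PC, CNT and IC, with 1 point for each of the 5 samples. The PC markers Scnn1g and Avpr2 and the IC markers are not drawn. The sum of the CNT markers in CNT, also not drawn, is at 236 and 251 at P0 and between 741 and 1112 in the adult.

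Depth per nucleus also differed between stages. The median number of open peaks in PC nuclei was 6554.5 and 7369 in the P0 samples, 4606 in the P21 sample, and 2839.5 and 6027.5 in the P56 samples, and CNT and IC had the same order of samples. The clusters held 1325 PC, 879 CNT and 599 IC nuclei in all, with as few as 40 and 56 IC nuclei at P0. Values are therefore given on 2 scales: the percentage of nuclei open at a peak, which grows with depth, and CPM, which compares a gene with the rest of the same nuclei. Each share was also taken over nuclei of like depth, with at least 3000 and fewer than 6000 open peaks. Stage differences in CPM also changed over nuclei of like depth, as given below for genes grouped by how open they were.

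**Figure D2:**
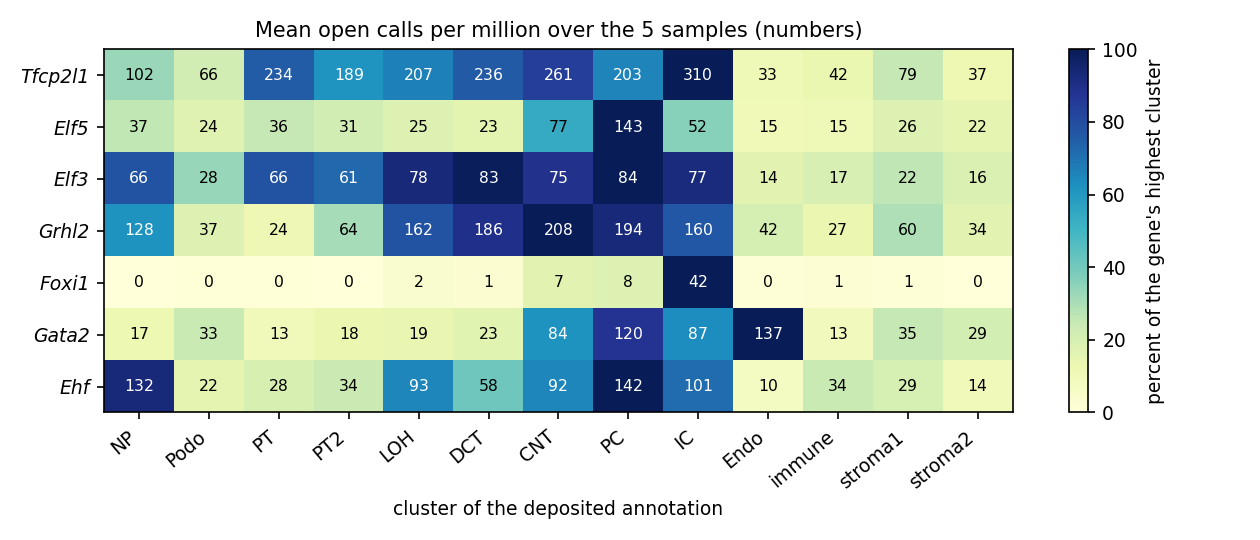
CPM in the window of each of the 7 genes across the 13 clusters, as the mean of 5 samples. Foxi1 is highest in IC with a mean of 42.4, Elf5 in PC with 143, and Gata2 in endothelium with 137.

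Across the 13 clusters, the 7 genes fell into different orders. Clusters were defined by the authors from the same open chromatin, so these levels are a description. Foxi1 was the most restricted, with 42.4 ± 17.1 (SD, n = 5) CPM in IC, 7.73 ± 1.56 in PC, 6.86 ± 3.04 in CNT and at most 1.53 as a mean in any other cluster. IC lay above PC in 5 of 5 samples and by more than the larger SD, while PC and CNT did not differ beyond their spread.

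Elf5 was highest in PC, at 143 ± 31.0, followed by CNT at 76.9 ± 56.4 and IC at 51.6 ± 12.8. The gap between PC and CNT exceeded the larger SD, but PC was above CNT in only 3 of 5 samples. Endothelium was lowest, at 15.0 ± 7.01. Gata2 was highest in endothelium, at 137 ± 29.0, and PC followed at 120 ± 48.0, IC at 87.0 ± 24.6 and CNT at 84.3 ± 22.0. These 4 did not differ from their neighbours beyond the spread, whereas CNT was 2.44-fold above the next cluster, stroma 1, and above it in 5 of 5 samples.

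Tfcp2l1 was not restricted to the duct. Its mean was 310 ± 74.8 in IC, 261 ± 77.3 in CNT, 236 ± 37.0 in distal convoluted tubule, 234 ± 46.3 in the cluster PT and 203 ± 70.2 in PC, and the only gap beyond the larger SD was between PT2, at 189 ± 46.3, and nephron progenitors, at 102 ± 61.6. Elf3 was at 84.0 ± 22.4 in PC, between 61.0 and 83.2 in the other tubule clusters and at 27.9 ± 7.38 in podocytes. In nephron progenitors it was 29.3 and 27.7 at P0 and 90.8, 85.3 and 94.9 in the adult, so that the mean of 65.6 joins unlike stages.

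Grhl2 was highest in CNT (208 ± 56.7), PC (194 ± 30.2), distal convoluted tubule (186 ± 24.3), loop of Henle (162 ± 41.2) and IC (160 ± 24.9), none of which differed from the next beyond the spread. It was lowest in PT, at 24.2 ± 8.84, where Tfcp2l1 was high. Ehf was highest in PC, at 142 ± 35.3, with IC at 101 ± 15.9 and CNT at 92.1 ± 16.2. CNT was above distal convoluted tubule, at 57.9 ± 15.8, in 5 of 5 samples. Nephron progenitors had a mean of 132 ± 84.4 that joined unlike stages, with 45.6 and 42.2 at P0, below PC. In the adult nuclei of that label the values were 233, 174 and 163, above PC of the same sample. PC was thus above nephron progenitors in 2 of 5 samples, and the gap of the means lay within the larger SD.

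Peak by peak, 43 of the 84 (51.2%) had their highest mean share in PC, IC or CNT, with 22 in PC, 14 in IC and 7 in CNT. Over all peaks this share was 19.0%. Of the 7 Gata2 peaks 5 were highest in PC and 2 in endothelium. Of the 18 Tfcp2l1 peaks 8 were highest in IC, 3 in CNT, 4 in PT2 and 2 in PT. Of the 28 Grhl2 peaks 5 were highest in PC, 3 in CNT and 2 in IC, and the others in 6 further clusters.

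Genes whose windows followed the members most closely over the 65 sums of 13 clusters and 5 samples were picked by Pearson's r of log2(CPM + 1) among 16860 genes. For Tfcp2l1 they were Ripk4, Klhdc7a and Prss8, each with r = 0.94, and for Elf3 Wwc1, Esrp2 and Fhod3, with r from 0.95 to 0.96. For Grhl2 they were Esrp1, Cldn8 and Prdm16, with r from 0.91 to 0.92. Foxi1 was followed by Guca2a at 0.89, and Plcg2 and Ntpcr at 0.79. Ehf was followed by Rnf43 at 0.88 and Gm37240 at 0.85. The likeness was weaker for Elf5 (Mpped2 0.77, Trank1 0.75, Mgat4c 0.74) and Gata2 (Cdc42ep1 0.73, Tbx3 and Tspan15 0.72). These sums share libraries and depth, and no test was made.

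Elf5, the ETS factor known from mammary and placental epithelium and from principal cells, changed in opposite directions in the clusters labelled PC and CNT. Its gene (ENSMUSG00000027186.14, chr2:103411688-103450989, plus strand) had 154 and 116 CPM in nuclei labelled CNT in the P0 samples, 24.5 in the P21 sample, and 61.3 and 29.0 in the P56 samples. Both P0 samples lay above all adult samples. In PC the values were 114 in both P0 samples, 162 in the P21 sample, and 185 and 141 in the P56 samples, and here the adult samples lay above. In IC they were 71.7 and 53.9 in the P0 samples, 51.6 in the P21 sample, and 41.1 and 39.8 in the P56 samples. The P0 samples also lay above all adult samples in IC, loop of Henle, distal convoluted tubule, nephron progenitors and a stroma cluster. In loop of Henle the values were at least 41.1 at P0 and at most 14.7 in the adult. The stages overlapped in the remaining clusters, so as CPM PC was the only cluster with the adult samples above. As a share of all PC nuclei with any Elf5 peak open, the stages overlapped in PC. How many of all genes separate by stage in this way was not counted in any cluster. The stage difference was not tested outside the duct clusters.

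By edgeR's quasi-likelihood test with BH adjustment over all genes, Elf5 fell by 1.81 ± 0.27 (SE) on the log2 scale in CNT between P0 and adult, 3.50-fold (adjusted p = 0.000146, 95% interval -2.33 to -1.28). It rose by 0.46 ± 0.14 in PC (adjusted p = 0.0234), a call kept in 5 of 11 alternatives and lost, among others, with DESeq2, without either P0 sample and over nuclei of like depth (0.58 ± 0.24, adjusted p = 0.128), and the difference of -0.56 ± 0.28 in IC did not pass (adjusted p = 0.359). The test of the difference itself, PC minus CNT, adult minus P0, gave 2.21 ± 0.19 (adjusted p = 5.78e-11), and the value lay between 1.99 and 2.82 in all 12 alternatives, with every one past the threshold. At P0 PC and CNT differed by -0.20 ± 0.12 (adjusted p = 0.491, 95% interval -0.44 to 0.03). In the adult PC exceeded CNT by 2.01 ± 0.14, 4.03-fold (adjusted p = 1.03e-15).

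The share of nuclei with any Elf5 peak open showed the fall in CNT as well. It was 59.3% and 51.5% in the P0 samples, 10.8% in the P21 sample, and 18.0% and 17.3% in the P56 samples. Over nuclei of like depth it was 58.3% (21 of 36 nuclei) and 40.0% (8 of 20) at P0 against 8.33%, 16.9% and 16.8% in the adult. The 95% Wilson intervals over all nuclei, which cover counting error only, were 50.8% to 67.2% and 41.9% to 61% at P0 and had upper bounds of 19.3%, 22.8% and 22.3% in the adult. All nuclei and nuclei of like depth each gave p = 0.1 by the exact permutation test, two-sided, the smallest that 2 against 3 samples allow. In PC the shares were 50.8%, 52.9%, 51.5%, 42.1% and 55.7% over all nuclei, in the order P0, P0, P21, P56 and P56, so that stages overlapped. Over PC nuclei of like depth they were 39.7% and 46.7% at P0 and 50.0% to 59.8% in the adult.

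**Figure D3:**
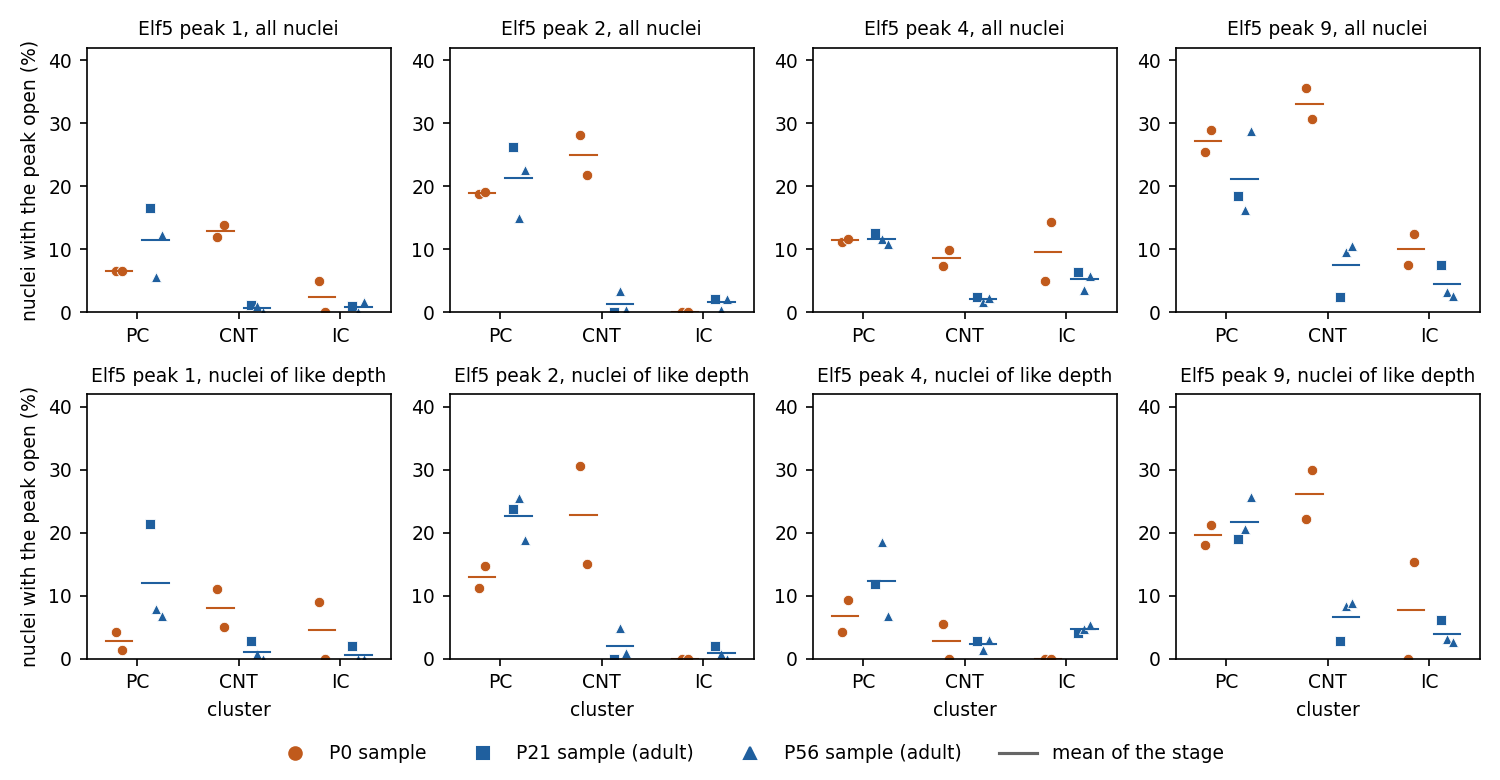
Share of nuclei (percent) with Elf5 peaks open in PC, CNT and IC, per sample. In CNT peaks 2 and 9 are open in 21.8% to 35.6% of nuclei at P0 and in at most 10.5% in the adult.

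Within Elf5, 4 peaks could be tested in CNT. Peaks 1, 2 and 4 passed the filter on low counts through the P0 samples, where they were open in more nuclei, so a lower adult value was in part fixed by the filter. Peaks 1 and 4 were among the least open 10% of the peaks tested in CNT, whose median log2 difference was -1.07. Peak 2 (chr2:103413126-103414078), in an intron 1.91 kb from the start, was open in 28.1% and 21.8% of nuclei labelled CNT at P0, 0 of 83 at P21, and 3.40% and 0.376% at P56. The count of 0 of 83 nuclei allows a share of up to 3.61%. Its log2 difference was -3.42 ± 0.57 (adjusted p = 0.00018, edgeR over all peaks tested). In PC the same peak stood at 18.8%, 19.1%, 26.2%, 15.0% and 22.6%, and in IC it was at most 2.13%.

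Peak 9 (chr2:103436389-103437196), in an intron 25.1 kb from the start and the most open Elf5 peak in PC and CNT, went from 35.6% and 30.7% in CNT at P0 to 2.41%, 9.52% and 10.5%. It fell by 1.51 ± 0.32 on the log2 scale (adjusted p = 0.00154). Peak 1 (chr2:103411844-103412352), over an exon, fell by 3.79 ± 0.73 (adjusted p = 0.000583), from 11.9% and 13.9% to at most 1.20%. Peak 4 (chr2:103423991-103425111), over the start of other transcripts, fell by 1.63 ± 0.58 (adjusted p = 0.044), from 7.41% and 9.90% to at most 2.41%. Over nuclei of like depth peaks 1, 2, 4 and 9 had too few open calls to be tested in CNT. In CNT the call at peak 2 was lost with DESeq2, that at peak 1 without the first P0 sample and that at peak 9 with no filter and without the first P0 sample. The call at peak 4 was lost with DESeq2 (adjusted p = 0.188), with no filter (0.329) and without either P0 sample (0.426 and 0.402), and its shares over nuclei of like depth, 5.56% and 0 of 20 at P0 and 2.78%, 1.41% and 2.97% in the adult, overlapped. In PC peaks 1 and 2 rose by 1.11 ± 0.33 (adjusted p = 0.0131) and 0.58 ± 0.22 (adjusted p = 0.0443), and peaks 4 and 9 did not pass. The call at peak 1 in PC was kept in 5 of 8 alternatives. The call at peak 2 in PC was lost in 8 of 10 alternatives, with values down to 0.18, and its shares overlapped between stages.

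The nuclei labelled CNT changed in other respects too: their CNT markers stood at 236 and 251 CPM at P0 and at 741 or more in the adult, their distal convoluted tubule markers at no more than 55.4 and at 236 or more, and their summed PC markers at 171 and 176 and at 186 to 222. Nuclei of a different kind under 1 label at P0, and a change within 1 kind, cannot be told apart here.

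Against IC, Elf5 was higher in PC at P0 by 0.95 ± 0.21 (adjusted p = 0.00122) and in the adult by 1.91 ± 0.15, 3.75-fold (adjusted p = 1.4e-14). Nuclei labelled CNT exceeded IC at P0 by 1.16 ± 0.23 (adjusted p = 0.000771), and the difference between stages of CNT minus IC was -1.26 ± 0.31 (adjusted p = 0.013). The call of PC against IC at P0 was kept in 8 of 12 alternatives and lost with DESeq2, with nuclei thinned or of like depth and without the second P0 sample. That of CNT against IC at P0 was also kept in 8 of 12 and lost with nuclei thinned or of like depth and without either P0 sample. The call of the stage difference was kept in 5 of 12 and lost with DESeq2, with nuclei thinned or of like depth, without the sample as a block (adjusted p = 0.173), without either P0 sample (adjusted p = 0.131 and 0.173) and without the second P56 sample (adjusted p = 0.166).

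**Figure D4:**
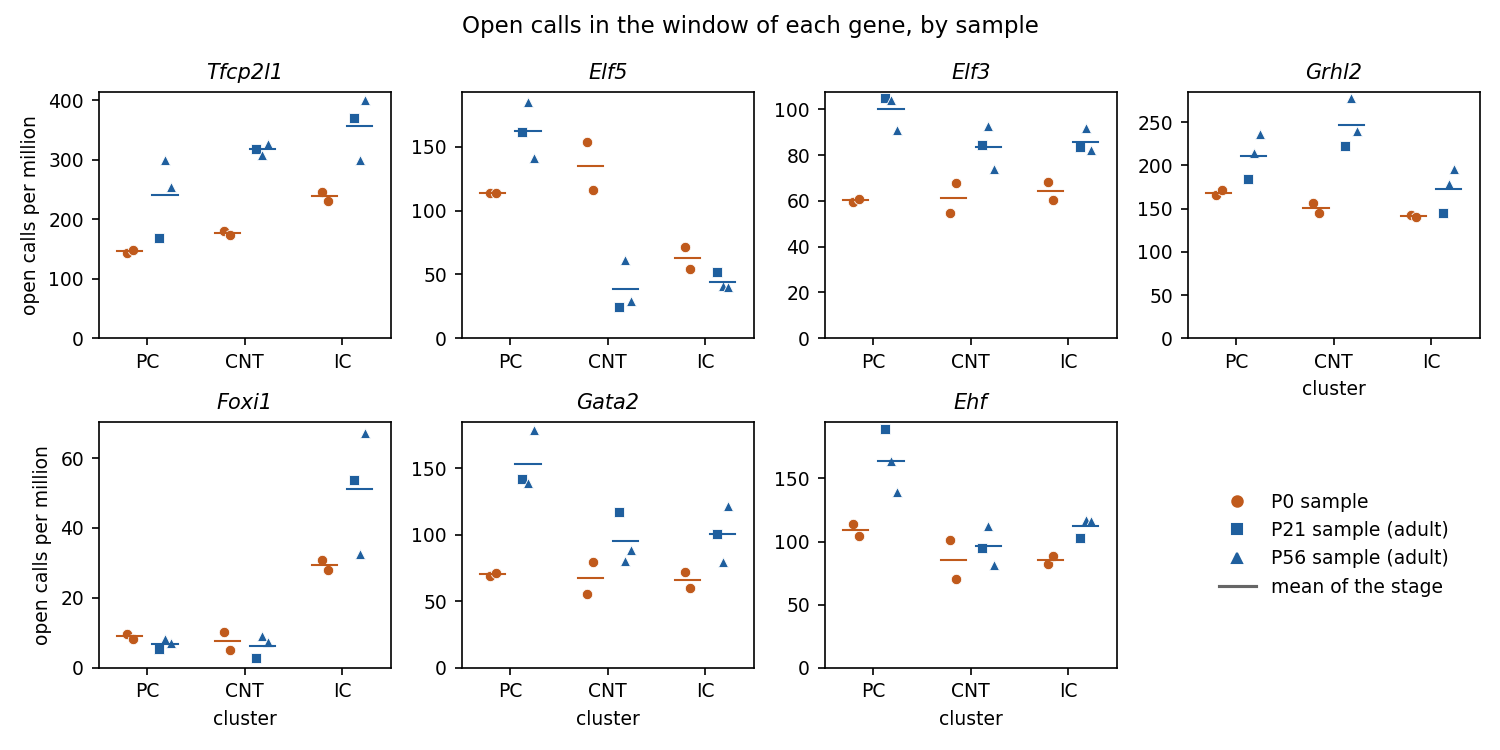
CPM in the window of each of the 7 genes in PC, CNT and IC, with 1 point per sample and stage marked by colour. Elf5 in CNT is at 116 and 154 at P0 and between 24.5 and 61.3 in the adult, and Gata2 in PC at 69.4 and 71.3 at P0 and between 139 and 179 in the adult.

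Of the other 2 ETS factors, Elf3 (ENSMUSG00000003051.13, chr1:135253575-135258568, minus strand) has a single peak in its window, over its start at chr1:135258338-135259550, which holds this ETS string on the minus strand:
Elf3 peak 1, chr1:135258798-135258827, minus strand, ETS letters: ggccaggcccccAGGAAGaatttccagggc
In PC it had 59.7 and 60.8 CPM in the P0 samples, 105 in the P21 sample, and 104 and 90.8 in the P56 samples, so that the stages did not overlap. It rose by 0.66 ± 0.13 (adjusted p = 0.00204), a call kept in 7 of 11 alternatives and lost with nuclei thinned or of like depth and without either P0 sample. In CNT the values were 54.7, 68.0, 84.3, 92.5 and 73.8 and in IC 68.3, 60.4, 83.3, 91.9 and 82.1, where the differences of 0.39 ± 0.20 (adjusted p = 0.177) and 0.38 ± 0.21 (adjusted p = 0.425) did not pass. As a share, the peak was open in 40.6%, 46.3%, 55.3%, 33.5% and 60.8% of PC nuclei, which overlapped between stages, and over nuclei of like depth in 32.8%, 34.7%, 40.5%, 41.2% and 54.1%. Neither at P0 nor in the adult did Elf3 pass in any pair of duct clusters.

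Ehf (ENSMUSG00000012350.15, chr2:103263433-103303278, minus strand) lies beside Elf5 on chromosome 2. Its PC values were 114 and 104 in the P0 samples, 189 in the P21 sample, and 164 and 139 in the P56 samples. It rose in PC by 0.51 ± 0.14 (adjusted p = 0.0144), a call kept in 5 of 11 alternatives and lost, among others, with DESeq2 and without either P0 sample. In CNT the values were 101, 70.5, 95.2, 112 and 81.6, with stages overlapping and a difference of 0.09 ± 0.20 (adjusted p = 0.774), whose direction changed over nuclei of like depth. The share of CNT nuclei with any Ehf peak open was, however, higher at P0, at 41.5% and 45.5% against 27.7%, 29.9% and 38.0% (exact permutation p = 0.2, two-sided). Over nuclei of like depth it was 41.7% and 40.0% against 30.6%, 31.7% and 35.6% (exact permutation p = 0.1, two-sided). In IC the CPM values were 81.9, 88.5, 103, 117 and 116, with 0.35 ± 0.19 (adjusted p = 0.414).

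In introns of Ehf, 2 peaks rose in PC: peak 13 (chr2:103293627-103294285) by 0.64 ± 0.24 (adjusted p = 0.0435) and peak 14 (chr2:103294417-103295310) by 0.94 ± 0.29 (adjusted p = 0.0164). These calls were kept in 3 and 4 of 9 alternatives, and both were lost with DESeq2, with no filter, over nuclei of like depth and without either P0 sample. The start-site peak 15 (chr2:103302799-103304352), open in 23.9% ± 8.91 (SD, n = 5) of PC nuclei, did not pass. At P0 PC and CNT differed by 0.38 ± 0.14 (adjusted p = 0.122), and in the adult PC was higher by 0.73 ± 0.11 (adjusted p = 1.8e-06). PC also exceeded IC in the adult, by 0.47 ± 0.11 (adjusted p = 0.00154), a call lost with DESeq2 and with nuclei thinned.

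Gata2, the zinc finger factor, had the largest of the 7 log2 differences between stages in PC. Its window (ENSMUSG00000015053.14, chr6:88193891-88207032, plus strand) had 69.4 and 71.3 CPM in PC in the P0 samples, 142 in the P21 sample, and 139 and 179 in the P56 samples. The log2 difference was 1.11 ± 0.14, 2.15-fold (adjusted p = 6.89e-05), and over nuclei of like depth 1.35 ± 0.25 (adjusted p = 0.000575). With each nucleus thinned to 1000 open peaks it was 0.70 ± 0.28 and did not pass (adjusted p = 0.114). No other member passed in PC with like depth: Grhl2 gave 0.41 ± 0.21 (adjusted p = 0.235), Elf3 gave 0.43 ± 0.25 (adjusted p = 0.319) and Ehf 0.67 ± 0.24 (adjusted p = 0.0656). The share of like-depth PC nuclei with any Gata2 peak open was 23.3% and 30.7% at P0 and 54.8%, 46.1% and 70.3% in the adult (exact permutation p = 0.1, two-sided). Over all PC nuclei it was 33.8%, 40.3%, 52.4%, 33.8% and 69.3%, and the shallow first P56 sample fell within the P0 range.

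Within Gata2, 4 peaks rose in PC. Peak 4 (chr6:88201312-88202007), over an exon, was open in 9.90%, 9.43%, 19.4%, 13.2% and 31.6% of PC nuclei, and rose by 1.60 ± 0.24 (adjusted p = 3.22e-05). Peak 3 (chr6:88198252-88199029), over a transcript start, rose by 1.21 ± 0.23 (adjusted p = 0.000394). Peak 6 (chr6:88205458-88205813), over an exon, rose by 1.87 ± 0.43 (adjusted p = 0.00195) and peak 1 (chr6:88193673-88194613), over the first start, by 0.86 ± 0.27 (adjusted p = 0.0189). Peak 6 was open in 8 and 13 nuclei of the P0 samples and passed the filter on low counts through the adult samples, so its direction was in part fixed by it. The call at peak 1 was kept in 3 of 8 alternatives. Peaks 3 and 4 also passed over nuclei of like depth, by 1.52 ± 0.36 (adjusted p = 0.0052) and 2.07 ± 0.45 (adjusted p = 0.00238), but not with nuclei thinned (adjusted p = 0.666 and 0.34).

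In CNT Gata2 stood at 55.8, 79.3, 117, 80.4 and 88.9 and in IC at 71.7, 60.4, 101, 79.8 and 122, and neither difference passed (0.40 ± 0.20, adjusted p = 0.163, and 0.60 ± 0.23, adjusted p = 0.207). In both clusters the adult values lay above the P0 values without overlap. Over nuclei of like depth the share of IC nuclei with any Gata2 peak open was 18.2% and 15.4% at P0. It was 38.8%, 33.6% and 55.4% in the adult (exact permutation p = 0.1, two-sided), with 11 and 13 IC nuclei at P0. In CNT the mean shares were 18.3% and 36.6%, without overlap (exact permutation p = 0.2, two-sided). Over all nuclei the shares overlapped between stages in both clusters. Adult PC exceeded CNT by 0.82 ± 0.11 (adjusted p = 9.88e-08) and IC by 0.61 ± 0.11 (adjusted p = 4.16e-05), while at P0 these differences were 0.11 ± 0.16 (adjusted p = 0.86) and 0.20 ± 0.22 (adjusted p = 0.683). The PC minus CNT difference changed with stage by 0.71 ± 0.20 (adjusted p = 0.0186). It did not pass with DESeq2, with nuclei thinned, over nuclei of like depth (0.39 ± 0.47, adjusted p = 0.897), without the second P0 sample (0.44, adjusted p = 0.506), without the second P56 sample (0.49, adjusted p = 0.303) or without the sample block (0.65, adjusted p = 0.225). Endothelial markers, which belong to the cluster where Gata2 was highest, summed to 98.2 and 111 in PC at P0 and to between 65.3 and 97.1 in the adult, and their part in the Gata2 result was not tested.

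Tfcp2l1 (ENSMUSG00000026380.10, chr1:118627945-118685168, plus strand) had higher values in IC than in PC, and rose in PC and CNT. Its PC values were 143 and 149 in the P0 samples, 169 in the P21 sample, and 300 and 255 in the P56 samples. In CNT they were 180, 174, 318, 308 and 327, and in IC 246, 231, 371, 300 and 401. As CPM the stages did not overlap in any of the 3 clusters. The share of nuclei with any Tfcp2l1 peak open overlapped between stages in each of them. In PC it was 61.2% and 67.7% at P0 and 47.6%, 58.6% and 74.5% in the adult. Over nuclei of like depth it overlapped in PC and CNT, but not in IC, where the adult lay above. As CPM Tfcp2l1 was also higher in the adult without overlap in every other cluster but endothelium. In loop of Henle nuclei Tfcp2l1 was at 131 and 135 at P0 and at 255, 249 and 264 in the adult, and the loop of Henle markers, given with the label check, were also higher in the adult without overlap in each duct cluster. Their part was not tested.

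The rise was 0.72 ± 0.18 in PC (adjusted p = 0.00663) and 0.79 ± 0.14 in CNT (adjusted p = 0.000677), and the difference of 0.54 ± 0.16 in IC did not pass (adjusted p = 0.0969). With nuclei thinned Tfcp2l1 was the gene that passed in PC (0.78 ± 0.22, adjusted p = 0.0149). Over nuclei of like depth neither rise passed (0.58 ± 0.23, adjusted p = 0.106, and 0.21 ± 0.22, adjusted p = 0.698). The PC call was also lost with no filter and without either P0 sample. PC minus IC was -0.63 ± 0.17 at P0 (adjusted p = 0.00766) and -0.53 ± 0.11 in the adult (adjusted p = 0.000226). The P0 call was kept in 6 of 12 alternatives and lost with DESeq2, with nuclei thinned or of like depth, without the block and without either P0 sample, with values between -0.71 and -0.30, while the adult call was lost with nuclei thinned. PC minus CNT was -0.35 ± 0.11 in the adult (adjusted p = 0.0143), and this call was kept in 7 of 12.

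Within the gene the peaks were tested one by one, and no test compared them. The start-site peak 1 (chr1:118627674-118628673) and the intronic peak 14 (chr1:118672079-118672818), the most open ones in the duct, did not pass in any cluster, with 31.0% and 39.7% of PC nuclei open at peak 14 at P0 and 23.3%, 23.3% and 36.3% in the adult. Beside them, 3 less open peaks rose in PC and in CNT. In CNT these peaks passed the filter on low counts through the adult samples, with 2 to 5 open nuclei in each P0 sample, so the direction there was in part fixed by the filter. In PC the same held for peaks 5 and 17, with 10 and 14 open nuclei and 8 and 9 in the P0 samples, which lay under the filter's minimum once scaled to the depth of those samples. Intronic peak 5 (chr1:118643145-118643925) rose by 1.78 ± 0.44 in PC (adjusted p = 0.0034) and 2.59 ± 0.58 in CNT (adjusted p = 0.002). Intronic peak 6 (chr1:118648137-118648580) rose by 1.51 ± 0.36 (adjusted p = 0.00298) and 2.24 ± 0.50 (adjusted p = 0.0019), from 2.22% and 4.95% of CNT nuclei to between 11.6% and 12.8%. Peak 17 (chr1:118681947-118682792), over an exon, rose by 2.01 ± 0.45 (adjusted p = 0.00147) and 2.03 ± 0.56 (adjusted p = 0.00974). Its highest share over the 13 clusters was in PT, at 28.1%, and proximal tubule markers in PC summed to 22.7 and 25.5 CPM at P0 and 84.6, 24.5 and 73.2 in the adult. Intronic peak 7 (chr1:118649955-118651183) rose in PC by 0.83 ± 0.28 (adjusted p = 0.0251), a call kept in 2 of 9 alternatives and lost, among others, with DESeq2, over nuclei of like depth and without either P0 sample. The calls at peaks 5 and 6 in PC were each kept in 6 of 8, and those at peak 17 in 5 of 8 in PC and 5 of 8 in CNT. Over nuclei of like depth, peaks 5, 6 and 17 had too few open calls to be tested in either cluster.

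Foxi1 (ENSMUSG00000047861.2, chr11:34204338-34208089, minus strand) was more open in IC than in the other duct clusters, as measured at its one peak, over its start at chr11:34207790-34208449. IC had 30.7 and 28.1 CPM in the P0 samples, 53.6 in the P21 sample, and 32.6 and 67.2 in the P56 samples. PC had 9.71, 8.25, 5.52, 8.16 and 7.04, and CNT 10.2, 5.04, 2.72, 9.05 and 7.26. Every IC value lay above every PC and CNT value.

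The share of IC nuclei open at Foxi1 was 22.5% (9 of 40), 23.2% (13 of 56), 28.7% (27 of 94), 12.2% (27 of 221) and 43.1% (81 of 188), and it was 2.63% to 6.60% in PC. The 2 P56 samples were the lowest and the highest, with 95% Wilson intervals of 8.53% to 17.2% and 36.2% to 50.2%, and over nuclei of like depth they lay at 13.6% and 43.2%. PC minus IC was -1.65 ± 0.42 at P0 (adjusted p = 0.0059) and -2.89 ± 0.30, 7.44-fold, in the adult (adjusted p = 1.34e-10). CNT minus IC was -1.91 ± 0.52 (adjusted p = 0.0199) and -2.85 ± 0.30 (adjusted p = 8.74e-11). Both adult calls were kept in 12 of 12 alternatives. In PC and CNT Foxi1 lay under the minimum of the filter on low counts in these fits. It entered the pair tests through IC, so the direction of its calls was in part fixed by the filter. At P0 the call of PC against IC was kept in 7 of 12 and that of CNT against IC in 6, and both were lost with DESeq2, with nuclei thinned or of like depth and without either P0 sample. The stage difference in IC, 0.78 ± 0.36, did not pass (adjusted p = 0.31), but without the first P56 sample it did (1.02, adjusted p = 0.0173).

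Grhl2 (ENSMUSG00000022286.16, chr15:37233036-37363569, plus strand) had similar levels in the duct clusters at P0. PC had 166, 171, 184, 214 and 236 CPM, CNT 156, 145, 223, 278 and 240, and IC 143, 140, 145, 178 and 196. It rose in CNT by 0.68 ± 0.16 (adjusted p = 0.00446), while 0.31 ± 0.14 in PC (adjusted p = 0.0956) and 0.26 ± 0.18 in IC (adjusted p = 0.537) did not pass. Over nuclei of like depth the rise in CNT was 0.50 ± 0.27 (adjusted p = 0.348), and the call was also lost with nuclei thinned and without the second P0 sample. In the adult CNT exceeded IC by 0.48 ± 0.10 (adjusted p = 0.000223) and PC was above IC by 0.29 ± 0.10 (adjusted p = 0.0403), a call kept in 3 of 12 alternatives and lost with DESeq2, with nuclei thinned or of like depth, without the block and without any 1 of the 5 samples. None of its tested peaks passed between stages. The start-site peak 1 (chr15:37232353-37233617) was its most open one, with 35.0%, 40.9%, 33.0%, 21.4% and 44.8% of PC nuclei, and peak 19 (chr15:37317908-37318489), over a start within the gene, was at 0 to 4.31% in the 3 clusters.

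**Figure D5:**
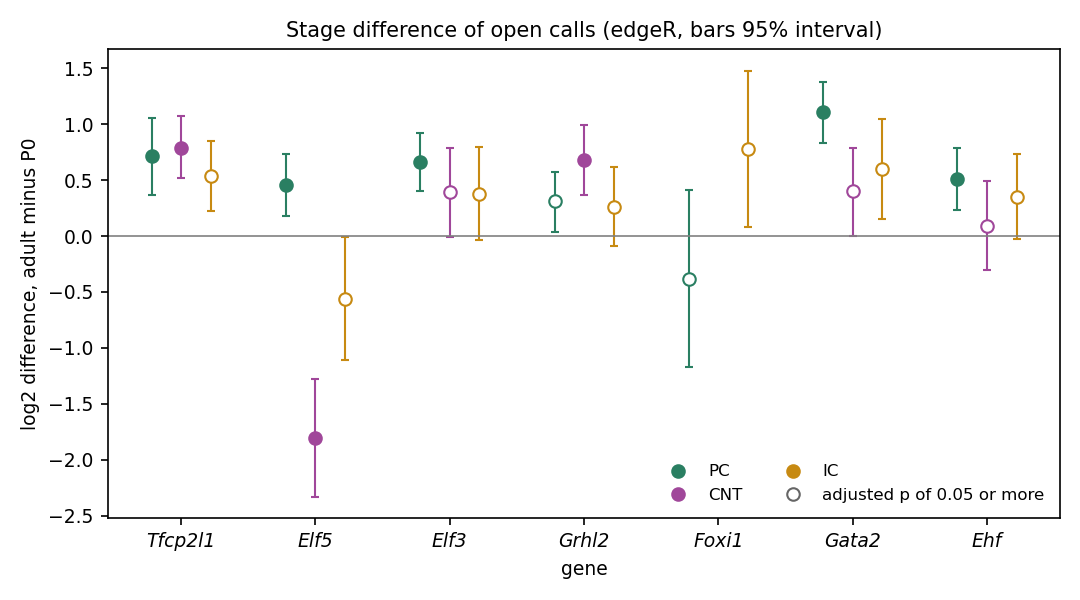
Log2 difference between adult and P0 (adult minus P0) of each gene in PC, CNT and IC, with a normal 95% interval from the standard error. Gata2 in PC is at 1.11 and Elf5 in CNT at -1.81.

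Counted over the 7 genes, 5 passed between P0 and adult in PC, each higher in the adult, where 12.4% of the 22307 genes tested were higher and 17.3% lower. In CNT 2 of 6 tested were higher and 1 lower, against 9.75% and 15.3% of all genes, and Foxi1 had too few calls to test. In IC 0 of 7 passed by edgeR, and 0 by DESeq2, with 3 at an unadjusted p under 0.05, and in this smallest cluster only 0.265% of all genes passed as higher and 0.734% as lower. In IC 3 genes, Tfcp2l1, Gata2 and Foxi1, passed without the first P56 sample. The shares of all genes in IC given above are from the fit with all samples, and none is given for this fit.

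Most members are among the more open genes, and in PC the median log2 difference over all genes was 0.21 in the most open 10% of genes and 0.25 in the next 10%, as against 0.00 over all genes. In CNT it was 0.30 in both. The values of Elf5 and Ehf in PC, 0.46 and 0.51, lay closer to these medians than that of Gata2, at 1.11. Over nuclei of like depth the same medians were 0.12 and 0.14 in PC and 0.12 and 0.03 in CNT. In the least open 10% of genes in CNT the median was -1.10 over all nuclei and -0.06 over nuclei of like depth. The part of depth in these medians was not tested. The PC count rested on both P0 samples: 1 gene, Gata2, and 3 or 4 peaks passed without the first or the second of them.

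By peak, 32 of the 84 had enough calls to test in PC, and 13 passed, each higher in the adult, where 12.7% of all tested peaks were higher and 16.7% lower. In CNT 23 could be tested, and 3 Tfcp2l1 peaks were higher and 4 Elf5 peaks lower, against 11.7% and 11.2% of all tested peaks. In CNT the 3 Tfcp2l1 peaks and Elf5 peaks 1, 2 and 4, and in PC Tfcp2l1 peaks 5 and 17 and Gata2 peak 6, passed the filter through the stage at which they were more open, so the counts in both clusters are a description only. In CNT 2 peaks passed without the first P0 sample. In IC 0 of 17 passed by edgeR or DESeq2, where 0.114% of all tested peaks passed as higher by edgeR. Of the 17, 5 had an unadjusted p under 0.05, for which no share of all peaks is given. The other member peaks had too few open calls to be tested.

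Between clusters, 3 of the 7 genes passed for PC against IC at P0, where 11.8% of all genes did, and 6 in the adult, where 19.5% did. For PC against CNT 0 of 7 passed at P0 by edgeR and by DESeq2, where 3.25% of all genes passed by edgeR. There 1 of the 7 had an unadjusted p under 0.05, for which no share of all genes is given. In the adult 4 passed (24.1%). For CNT against IC 2 passed at P0 (4.57%) and 2 in the adult (20.9%). Foxi1 is counted in both comparisons with IC at both stages, and it passed the filter on low counts through IC. The difference between stages passed for 0 genes in PC against IC by edgeR and DESeq2, where 0.955% of all genes passed by edgeR. It passed for 2 in PC against CNT (6.84%) and for 1 in CNT against IC (3.06%). In PC against IC 2 genes had an unadjusted p under 0.05, for which no share of all genes is given. With nuclei thinned, the adult calls of Gata2 and Ehf in PC against CNT, of Gata2 in PC against IC and of Grhl2 in CNT against IC were lost. Because these clusters were drawn from the same open chromatin, the pair tests order genes and do not show that the clusters exist.

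Other transcription factors and target genes of the duct give the setting. In PC 9 of 10 principal cell genes rose between P0 and adult, with a median log2 difference of 0.93 against 0.00 over all genes. Aqp2, the vasopressin-regulated water channel, rose by 1.95 ± 0.16 (adjusted p = 3.35e-06), from 23.5 and 28.5 CPM to 99.3, 96.7 and 112. Avpr2, the vasopressin receptor, rose by 1.18 ± 0.31 (adjusted p = 0.00894) and Scnn1a, a subunit of the sodium channel, by 1.07 ± 0.18 (adjusted p = 0.000524). In CNT 4 of 10 rose and 1, the water channel Aqp3, fell by 0.93 ± 0.29 (adjusted p = 0.0263).

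Of 12 other duct transcription factors, 11 could be tested in PC and 5 rose, with a median of 0.18. Pax2, a paired box factor of the developing kidney, rose by 0.63 ± 0.13 (adjusted p = 0.0028). In CNT 4 of 10 rose and Pax2 fell by 0.50 ± 0.16 (adjusted p = 0.0253), so that Pax2, like Elf5, went in opposite directions in the 2 clusters. The test of that difference gave 1.09 ± 0.15 for Pax2 (adjusted p = 2.55e-06) and 1.24 ± 0.24 for Emx2 (adjusted p = 0.000477), and 5 of the 12 factors passed it, 3 in that direction and 2 in the other. The Elf5 rise in PC was kept in 5 of 11 alternatives, and alternatives are not given for Pax2 and Emx2. The marker differences of nuclei labelled CNT at P0, given above, apply here as well, and their part was not tested.

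Of 15 paralogs of the members, 13 could be tested in PC, and 1 rose and 5 fell, where 12.4% of all genes were higher and 17.3% lower. Their median log2 difference was -0.30, against 0.00 over all genes. Some were barely open in PC, such as Gata5, at 7.47 and 7.88 CPM at P0 and 5.52, 1.17 and 2.11 in the adult, and the median over all genes was -0.98 in the least open 10%. Tfcp2, the closest relative of Tfcp2l1 in the list, rose by 0.95 ± 0.14 (adjusted p = 0.000231), and the ETS factor Spdef fell by 1.91 ± 0.30 (adjusted p = 0.000331), from 32.9 and 29.3 CPM to 3.68, 11.7 and 8.44. In CNT 4 of 11 fell, Spdef by 2.00 ± 0.42 (adjusted p = 0.00213). There Spdef passed the filter on low counts through the P0 samples, so its direction was in part fixed by the filter. The same held in PC for Gata5 and Foxi3, so the counts of paralogs are a description only.

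Intercalated cell genes in PC gave 4 higher and 1 lower of 7 tested, with Slc26a4, the chloride and bicarbonate exchanger pendrin, lower by -2.27 ± 0.28 (adjusted p = 5.19e-05). In IC Slc26a4 was the only gene of these lists to pass, at 1.12 ± 0.26 (adjusted p = 0.0435), from 41.0 and 32.4 CPM to 69.4, 74.9 and 92.0. In CNT 2 of 7 passed, both higher. Of 6 epithelial junction genes, Cdh1, which encodes E-cadherin, was the 1 to pass in PC and in CNT and rose by 0.55 ± 0.14 (adjusted p = 0.00815) and 0.61 ± 0.15 (adjusted p = 0.00581).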

How the data were processed

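Nuclei of 5 mouse kidney samples were profiled by snATAC-seq. The authors aligned reads to mm10 (GRCm38) with Cell Ranger ATAC 1.1.0, filtered barcodes on fragments, mitochondrial ratio and promoter ratio, clustered nuclei with SnapATAC after Harmony, called peaks by MACS2 within each cell type from its pooled nuclei, and merged the calls. The values used are counts of open calls from the binarized cell-by-peak matrix deposited by the authors, with 166031996 open calls in 28316 nuclei and no scaling for depth. A further 89197 stored zeros were read as closed, and 664 nuclei of 2 clusters outside the 13 were left out. Clusters are those of the deposited annotation. No doublet search is named in the sources used here, and none was run. The authors used other GENCODE releases than the M21 used here.

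Calls were summed per sample and cluster over at least 20 nuclei, by peak and by gene window, and tested with edgeR 4.0.16 and limma 3.58.1 in R 4.3.3 (quasi-likelihood test, TMM factors, BH at 0.05 over all features, features kept by filterByExpr with min.count 10 and min.total.count 15). The standard error is the absolute log2 difference over the square root of F. The 95% intervals of log2 differences use it with a normal quantile and are narrower than the test implies. For Elf5 in IC the interval was -1.11 to -0.01, at an unadjusted p = 0.059 by the quasi-likelihood test. P0 and adult samples share no animals and were not paired. The 3 clusters come from the same samples, so pair tests kept the sample as a block. Shares were compared by exact permutation over samples. Python 3.11.15, numpy 2.4.6, pandas 2.3.3, scipy 1.17.1 and matplotlib 3.10.9 were used, and the tests were tried on simulated counts.

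The alternatives were DESeq2 1.42.0, its size factors, no filter, windows with 5 kb upstream, no sample block, nuclei thinned to 1000 open peaks, and each sample left out. Nuclei of like depth, with 3000 to 6000 open peaks, were added after seeing the data. The members and lists were chosen with earlier results of these data known. Named peaks are those over a start, those with the highest share in PC, IC or CNT, and those that passed between stages, and at most 4 genes per list are named. Some genes that these rules pick are not reported here by name. Precision is set by the number of nuclei and open calls per sum, and the analyses of scRNA-seq and bulk ATAC-seq samples are not used here.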

Additional observations from a re-analysis of the deposited data

Results flagged for a closer look

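In 3 cases the change between P0 and adult differed between clusters by a test of the difference itself. Elf5 in PC minus CNT changed by 2.21 on the log2 scale, with the adult PC samples at 141 to 185 CPM (open calls in the gene's window, scaled to 1000000 calls) and the adult CNT samples at 24.5 to 61.3. Gata2 in PC minus CNT changed by 0.71, and Elf5 in CNT minus IC by -1.26. The nuclei labelled CNT at P0 had lower CNT marker levels (236 and 251 CPM, against at least 741 in the adult), and the part of this in the 3 values was not tested.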

How the results depend on the processing

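Counts of member genes or peaks that passed moved as follows. With DESeq2 the PC stage test gave 8 peaks and 3 genes (13 and 5 with edgeR), the CNT stage test 4 peaks (7), PC against IC at P0 0 (3), CNT against IC at P0 1 (2), and the stage difference of PC against CNT 1 (2) and of CNT against IC 0 (1). With no filter, PC gave 0 peaks and 2 genes, and IC 1 peak and 1 gene (0 and 0). With nuclei thinned, PC gave 0 peaks and 1 gene, CNT 0 peaks and 1 gene (7 and 3), PC against IC 0 at P0 and 2 in the adult (3 and 6), PC against CNT 1 in the adult (4) and 1 for the difference, and CNT against IC 0 at P0, 1 in the adult (2) and 0 for the difference. Over nuclei of like depth PC gave 2 peaks and 1 gene, CNT 0 peaks and 1 gene, PC against IC at P0 0, CNT against IC 0 at P0 and 0 for the difference, and PC against CNT 1 for the difference. Fewer calls entered the fits with nuclei thinned or of like depth.

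The labels' replicate numbers do not pair P0 with adult samples. Without the sample as a replicate block in the cluster tests, the stage difference of PC against CNT gave 1, CNT against IC 1 at P0 and 0 for the difference. Leaving out each sample gave 3 to 17 peaks and 1 to 6 genes in PC, 0 to 3 peaks and 0 to 3 genes in IC, 2 to 7 peaks and 2 to 3 genes in CNT, 0 to 3 for PC against IC at P0, 5 to 5 in the adult, 0 to 2 for CNT against IC at P0 and 2 to 4 in the adult, 3 to 4 for PC against CNT in the adult, 1 to 2 for its difference, 0 to 1 for that of CNT against IC, and 41 to 46 of the 84 peaks highest in a duct cluster. The direction changed for Grhl2 in IC with thinning (-0.46) and for Ehf in CNT over nuclei of like depth (-0.24) and in 2 of the 5 fits with a sample left out, which ranged from -0.13 to 0.42, and none of these had passed. Over the alternatives of the stage results of genes and of every other gene or peak result that passed, 462 values kept direction and side of the threshold, 149 no longer passed, 6 newly passed and 4 changed direction. Of the 43 cluster pair results of genes that did not pass, 29 changed sign in at least 1 alternative and 3 passed in at least 1. The causes were not tested.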
